A study of Mus musculus with 6 samples.

Results

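Carboxylesterases of families 1 and 2 (Ces1 and Ces2) are serine hydrolases that sit mostly in the lumen of the endoplasmic reticulum. They cleave esters, amides and thioesters, and in the body they handle drugs, prodrugs, pesticides and the body's own lipid esters. Liver is the organ best known for Ces1 enzymes, while Ces2 enzymes are known from both liver and intestine, where several of them act on acylglycerols. In the mouse each family has expanded into a tandem array of closely related genes.

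The 10 genes described here are Ces1c, Ces1d, Ces1e, Ces1f, Ces1g, Ces2a, Ces2b, Ces2c, Ces2e and Ces2g, 10 of the 34718 genes in the table and 10 of its 20 genes named Ces. They were chosen from results of the same comparison that is described below, so their levels and differences are given as a description, without a test. They were measured by RNA sequencing in Hepa1-6, a mouse hepatoma line grown in culture. The study has 3 control libraries, titled shNC and labelled as control, and 3 libraries titled shZfp207 and labelled as Zfp207 knockdown. The labels do not give the number of hairpins or say whether the replicates were separate cultures, so the spread between libraries may be technical, and an effect of a hairpin itself cannot be told apart from that of the knockdown.

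The libraries held 11933736 to 16248346 gene counts, and Zfp207, the targeted zinc finger gene, had 141.4 to 216.8 CPM (counts per 1000000 counts of a library) in the controls and 46.8 to 48.1 CPM in the knockdown libraries. Of the 11 hepatocyte and hepatoma markers examined, none was at 0 in all libraries. Albumin (Alb) had 523.9 to 1206 CPM in the controls and 2247 to 2379 CPM in the knockdown libraries. Alpha-fetoprotein (Afp) had 741.7 to 936.9 and 1775 to 1960 CPM, so both were higher in every knockdown library. The liver genes Ttr, Serpina1e, Cyp3a11 and Cps1 had at most 8 counts in any library. Control replicate 1 stood apart from the other libraries, with 10.5% of its counts from mitochondrially encoded genes against 2.89% and 2.67% in the other controls and 5.60% to 6.00% in the knockdown libraries. This share therefore differed between the groups when control replicate 1 is left aside.

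The promoters of 4 Ces2 genes are shown because these genes, which share their coding sequence to a large extent, ended at very different levels. Each is the RefSeq window (GRCm38.p6, plus strand) from 250 bases before to 50 bases after the gene's start. RefSeq windows were matched for 7 of the 10 genes. Ces2g (chr8:104961468-104961767) and Ces2e (chr8:104926010-104926309) gave nearly all carboxylesterase counts, Ces2c (chr8:104846818-104847117) gave few, and Ces2a (chr8:104733753-104734052) gave 2. Capitals mark a CCAAT box on either strand or the nuclear receptor half-site AGGTCA.
Ces2g: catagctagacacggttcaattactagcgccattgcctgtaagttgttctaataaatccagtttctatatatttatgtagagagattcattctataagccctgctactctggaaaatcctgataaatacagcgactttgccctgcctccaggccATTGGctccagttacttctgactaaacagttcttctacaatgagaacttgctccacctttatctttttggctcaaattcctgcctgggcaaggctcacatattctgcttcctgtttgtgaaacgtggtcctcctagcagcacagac
Ces2e: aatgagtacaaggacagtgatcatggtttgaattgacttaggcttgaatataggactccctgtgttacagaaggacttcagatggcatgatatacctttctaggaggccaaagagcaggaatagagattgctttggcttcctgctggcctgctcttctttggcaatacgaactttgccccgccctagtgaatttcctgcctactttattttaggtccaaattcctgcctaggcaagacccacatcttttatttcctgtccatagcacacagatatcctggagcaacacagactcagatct
Ces2c: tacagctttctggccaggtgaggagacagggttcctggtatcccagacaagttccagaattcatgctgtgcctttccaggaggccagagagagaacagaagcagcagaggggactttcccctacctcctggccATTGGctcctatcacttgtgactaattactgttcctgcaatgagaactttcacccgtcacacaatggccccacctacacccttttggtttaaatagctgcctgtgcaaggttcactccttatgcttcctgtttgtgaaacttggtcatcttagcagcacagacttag
Ces2a: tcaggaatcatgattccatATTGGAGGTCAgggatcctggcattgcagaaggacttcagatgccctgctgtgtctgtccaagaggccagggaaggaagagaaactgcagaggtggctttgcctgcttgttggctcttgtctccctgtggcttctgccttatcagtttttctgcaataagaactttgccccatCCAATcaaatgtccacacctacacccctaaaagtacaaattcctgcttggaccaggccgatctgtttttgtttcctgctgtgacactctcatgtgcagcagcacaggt

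Of 7 short motifs searched on both strands (the TATA box TATAAA, the CCAAT box, the half-sites AGGTCA and AGTTCA, the antioxidant response core TGACNNNGC, the xenobiotic response core GCGTG and the HNF1 half-site GTTAAT), the CCAAT box was found in Ces2g, Ces2c and Ces2a and AGGTCA in Ces2a, where it directly follows a CCAAT box on the opposite strand. The CCAAT box lay on the opposite strand in Ces2g, with its first base 96 bases before the start, and in Ces2c, 117 bases before it. The Ces2e window held none of the 7. Among all 32851 promoter windows of this length, 37.4% held CCAAT, 16.3% AGGTCA, 14.0% AGTTCA, 13.6% TATAAA, 12.4% TGACNNNGC, 32.4% GCGTG and 7.10% GTTAAT, so a CCAAT box is a common feature. These matches are descriptions of letters in the windows and not of bound sites.

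The windows resembled each other in part. Aligned with no penalty for gaps at the ends, the Ces2e and Ces2g windows were identical at 60.2% of 274 aligned bases, and the Ces2c and Ces2g windows at 68.4% of 275. The Ces2a window was as close, at 68.4% of 247 bases to Ces2g, 69.1% of 265 to Ces2e and 68.7% of 291 to Ces2c. It shared a run of 17 bases with Ces2e. Ces2c and Ces2e were identical at 66.3% of 267. The longest run shared exactly by Ces2c and Ces2g was 19 bases, tgcttcctgtttgtgaaac, which begins 9 bases after the start in Ces2g and 5 bases after it in Ces2c. Ces2e and Ces2g shared at most 13 bases in a row, caaattcctgcct, 24 bases before the start in Ces2g and 34 before it in Ces2e. The 4 windows held 1 to 4 CpG dinucleotides each, against a median of 7 over all windows.

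The Ces1 genes had few or no counts in these cells. All 5 Ces1 genes together had 4 counts over the 6 libraries. Ces1d, the liver triacylglycerol hydrolase, Ces1e, also known as egasyn, and Ces1g had 0 counts in every library, which allows at most 3 counts, or 0.185 to 0.251 CPM depending on the library (counting error only). Ces1c, the plasma carboxylesterase of the mouse, had 2 counts in control replicate 3 and 0 elsewhere. Ces1f had 1 count in each of knockdown replicates 1 and 2 and 0 elsewhere. No fold is given for these genes, since both groups were at or under 3 counts. The Ces1 genes lie on the minus strand of chromosome 8, within 93099015 to 93337308 in mm10, and none of the 4 other genes within 300 kb of this span (Mmp2, Lpcat2, Capns2 and Slc6a2) had enough counts to be tested.

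Of the 5 Ces2 genes, 4 were detected, by the measure of at least 3 counts in some library, and their levels in the knockdown libraries lay above all control libraries, as was the case for 21.5% of the 11975 genes with enough counts to be tested. Nothing is read from this count, since the genes were chosen from the same comparison. The exception was Ces2a, an acylglycerol hydrolase of liver and intestine, with 2 counts in control replicate 3 and 0 in the other 5 libraries. Thus 6 of the 10 genes, the 5 Ces1 genes and Ces2a, had at most 2 counts in any library. The Ces2 genes lie on the plus strand of chromosome 8, within 104734003 to 104969537 in mm10.

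Ces2g (ENSMUSG00000031877, chromosome 8, 104961718 to 104969537) encodes a member of the family that has been linked to lipid hydrolysis. It had 18, 21 and 22 counts in control replicates 1 to 3 and 510, 464 and 482 counts in knockdown replicates 1 to 3. In CPM these were 1.51, 1.44 and 1.35 against 33.5, 30.8 and 32.9. The groups were far apart and each was tight, and control replicate 1 lay close to the other controls. In bulk RNA, more transcript per cell and more cells with the transcript cannot be told apart. After TMM scaling the means were 1.43 ± 0.0707 CPM in the controls and 32.5 ± 1.34 CPM after knockdown (SD, n = 3 each). The fitted log2 fold change was 4.51 (SE 0.131), the 12th highest of the 11975 genes tested, and fits without 1 library gave 4.47 to 4.54.

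Ces2e (ENSMUSG00000031886, chromosome 8, 104926260 to 104934672) encodes an esterase known for pyrethroid hydrolysis and was the most abundant carboxylesterase transcript in every library. It had 230, 112 and 144 counts in the controls and 808, 842 and 776 in the knockdown libraries. In CPM these were 19.3, 7.68 and 8.86 against 53.0, 55.9 and 53.0. The groups did not overlap, but control replicate 1, the library with the highest mitochondrial share, held more than both other controls. The means were 11.9 ± 6.24 and 54.2 ± 1.78 CPM (SD, n = 3 each), and the log2 fold change was 2.20 (SE 0.336). Without control replicate 1 it was 2.71 (SE 0.0959), and with any other library left out it was 1.97 to 2.22. Ces2e thus moved with control replicate 1 while Ces2g did not. The part of the mitochondrial share in the Ces2e and Ces2g levels was not tested.

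Ces2b (ENSMUSG00000050097, chromosome 8, 104831572 to 104840093) is a less studied member of the array. It had 0, 1 and 5 counts in the controls and 25, 31 and 28 in the knockdown libraries, or 0, 0.0685 and 0.308 CPM against 1.64, 2.06 and 1.91 CPM. The knockdown libraries were alike and all above the controls, and 5 of the 6 control counts came from control replicate 3. The ratio of summed counts, scaled by library totals, was 13.3 (95% exact interval 5.87 to 37.3, counting error only). The log2 fold change was 3.70 (SE 0.658), and 5.36 (SE 0.693) without control replicate 3. With any other library left out it was 3.22 to 3.80.

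Ces2c (ENSMUSG00000061825, chromosome 8, 104847068 to 104854483), an acylcarnitine and acylglycerol hydrolase, had 1, 0 and 4 counts in the controls and 6, 10 and 4 in the knockdown libraries. In CPM these were 0.0838, 0 and 0.246 against 0.394, 0.663 and 0.273. The highest control and the lowest knockdown library nearly met. The ratio of summed counts was 3.81 (95% exact interval 1.39 to 13.0, counting error only). The gene was too low to be tested, and in the edgeR fit without a filter its log2 fold change was 1.90 (SE 0.971).

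**Figure D1:**
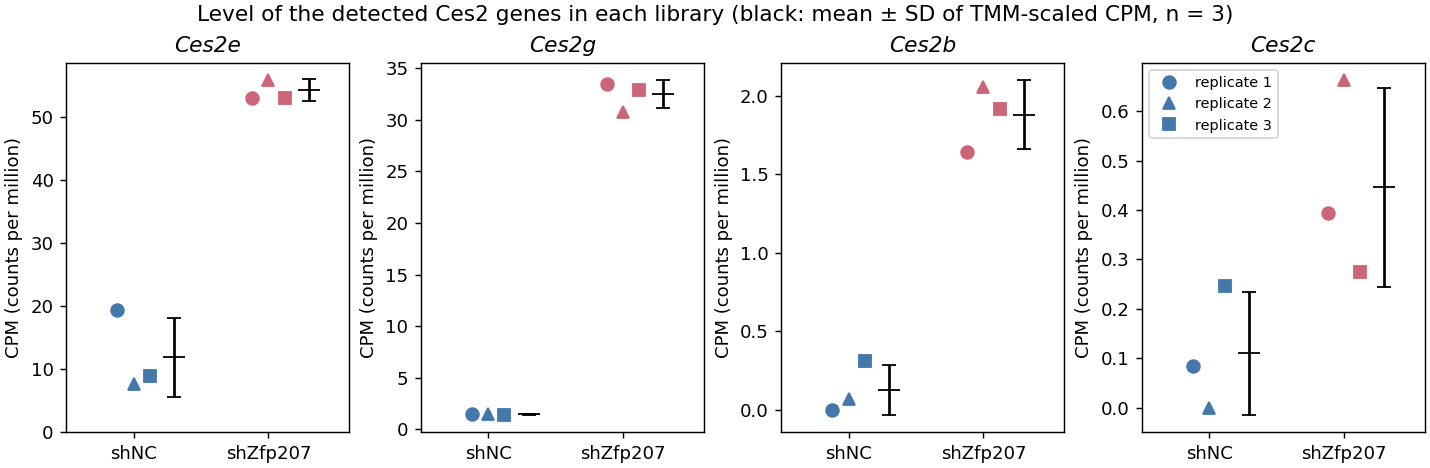
CPM of Ces2e, Ces2g, Ces2b and Ces2c in each library, with the 3 control (shNC, blue) and 3 knockdown (shZfp207, red) libraries as points and the mean ± SD of TMM-scaled CPM in black. The scale differs between panels. Ces2g lay between 1.35 and 1.51 CPM in the controls and between 30.8 and 33.5 CPM in the knockdown libraries, and control replicate 1 is the high control point for Ces2e.

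Of the 10 genes 3 passed the filter on low counts, Ces2b, Ces2e and Ces2g, and 0.793% of the genes tested had a fitted log2 fold change of at least 2, as these 3 had. The genes were chosen from this comparison, so this is a description of where they lie. Ces2b, with 0, 1 and 5 counts in the controls, also passed the filter only through its knockdown libraries. For the gene lists that follow, a gene passed where its adjusted p was below 0.05 in the edgeR quasi-likelihood fit, which 20.6% of the 11975 genes tested did, 9.92% as higher and 10.7% as lower.

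The order of the genes per transcript length was the same at the top in all 6 libraries. In the authors' FPKM (per kilobase of gene and per 1000000 counts), Ces2e had 6.10, 2.43 and 2.80 in the controls and 16.8, 17.7 and 16.8 in the knockdown libraries, and Ces2g had 0.526, 0.502 and 0.472 against 11.7, 10.7 and 11.5. Ces2e was above Ces2g in each library. Below these, Ces2f was above Ces2c in knockdown replicates 1 and 3, at 0.180 and 0.224 against 0.163 and 0.113 FPKM. By group mean the next genes were Ces2b and Ces2c. They did not differ beyond their spread in the controls, at 0.0302 ± 0.0389 and 0.0455 ± 0.0518 FPKM, and Ces2b was above Ces2c in each knockdown library, at 0.451 ± 0.0509 against 0.184 ± 0.0827 FPKM (SD, n = 3 each). Among all genes with an FPKM above 0, Ces2g went from the 24.6th to 29.1st percentile in the controls to the 73.4th to 74.9th in the knockdown libraries, and Ces2e from the 42.5th to 63.9th to the 81.2nd to 82.3rd.

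The mix of carboxylesterase transcripts also differed between the groups. Summed over all 20 Ces genes, the FPKM were 6.66, 2.95 and 3.54 in the controls and 29.3, 29.2 and 29.1 in the knockdown libraries. Ces2e made up 91.6%, 82.4% and 79.2% of that sum in the controls and 57.4%, 60.5% and 57.7% in the knockdown libraries. Ces2g went from 7.90%, 17.0% and 13.3% to 39.9%, 36.7% and 39.5%. The Ces2e to Ces2g ratio of FPKM was 11.6, 4.84 and 5.94 in the controls and 1.44, 1.65 and 1.46 in the knockdown libraries, without overlap. Hence the knockdown cells carried Ces2e and Ces2g at levels of the same order, whereas control cells carried mostly Ces2e. The shares and ratios depend on the gene lengths behind the FPKM, which were about 3160 bases for Ces2e and 2866 for Ces2g. In the GENCODE M21 annotation the exons of these genes cover 2699 and 3574 bases, with which the ratios would differ.

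**Figure D2:**
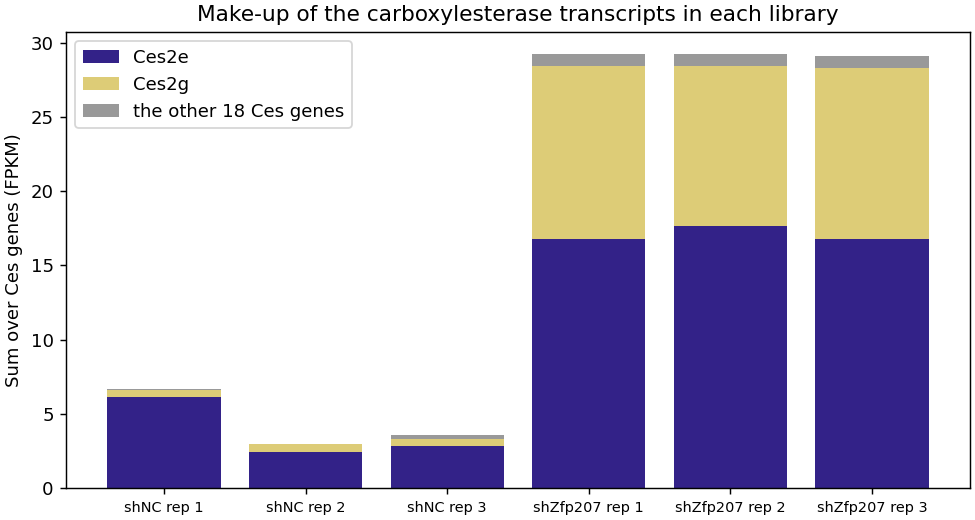
Summed FPKM of the 20 Ces genes in each library, stacked as Ces2e, Ces2g and all others. The sum was 2.95 to 6.66 in the 3 control libraries and 29.1 to 29.3 in the 3 knockdown libraries, and the Ces2g part grew from at most 17.0% to at least 36.7% of it.

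The similarity of the paralogs bears on how far these counts belong to one gene. In GENCODE M21 the coding sequences of the 10 genes were 554 to 565 codons long without the stop. Within the Ces2 group they were identical at 81.6% to 92.1% of aligned bases, within the Ces1 group at 74.5% to 81.5%, and between the groups at 60.9% to 65.0%. Ces2b and Ces2c were the closest pair, while Ces2e and Ces2g were identical at 82.9%. Of the distinct 50-base stretches in annotated transcripts, 3.07% of those of Ces2g and 3.30% of those of Ces2e occurred in another gene, and at 100 bases none did. For Ces2b these shares were 9.42% and 0.0881%, and for Ces2c 36.1% and 13.6%. Reads of Ces2c could therefore be shared with other members, with Ces2d-ps and with the pseudogenes Gm6831 and Gm8798, and its level is uncertain. Some 50-base stretches of Ces2e and Ces2g also occurred in Ces2b, which had far fewer counts. Reads of Ces2e or Ces2g could thus be among the Ces2b counts, and their part in its difference was not tested. The sources used here give neither the read length nor the treatment of reads with several matches. None of the 10 genes has exonic sequence that overlaps another annotated gene.

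The other 10 Ces genes of the table were Ces1a, Ces1b, Ces1h, Ces2d-ps, Ces2f, Ces2h, Ces3a, Ces3b, Ces4a and Ces5a. None had enough counts to be tested, and 7 had 0 counts in all libraries. Ces2f, which lies between Ces2e and Ces2g, had 0 counts in each control library and 5, 1 and 6 in the knockdown libraries. The exact interval of its ratio of summed counts had a lower end of 2.64 and no upper end (counting error only). Some 50-base stretches of Ces2e and Ces2g also occurred in Ces2f, and the part of their reads in its counts was not tested. Ces1a and Ces2d-ps had 1 count each, in knockdown replicates 1 and 3. Over all 20 genes 15 had at most 2 counts in any library.

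Genes around the Ces2 array were examined to see whether the levels of neighbours moved too. Of 16 other genes within 300 kb of the Ces2 span, 12 could be tested, of which 1 was higher and 0 were lower by edgeR (9.92% and 10.7% over all genes tested), with a median log2 fold change of -0.02 against -0.03 over all genes tested. The one gene was Cdh16, which encodes kidney cadherin (chromosome 8, 104614141 to 104624396, minus strand) and ends 109.6 kb before the Ces2 span. It had 1.01, 2.19 and 2.15 CPM in the controls and 22.7, 22.7 and 23.7 CPM in the knockdown libraries, all well above the controls (a log2 change of 3.67 ± 0.263 SE, adjusted p = 0.00153 by edgeR), and its call held with each library left out. The nearest tested neighbours outside the array were Fam96b, a cytosolic iron-sulfur assembly gene 92.0 kb away on the side of Ces2a, with a log2 fold change of -0.04 (adjusted p = 0.878 by edgeR), and Cbfb, a core-binding factor subunit gene 201.1 kb away on the side of Ces2g, with -0.02 (adjusted p = 0.919 by edgeR). Fam96b lies between Cdh16 and the array, so Cdh16 and the Ces2 genes with a large difference do not form an unbroken stretch. Without control replicate 1 the list had 2 higher and 2 lower genes, in a fit that called 6313 of 12108 genes.

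**Figure D3:**
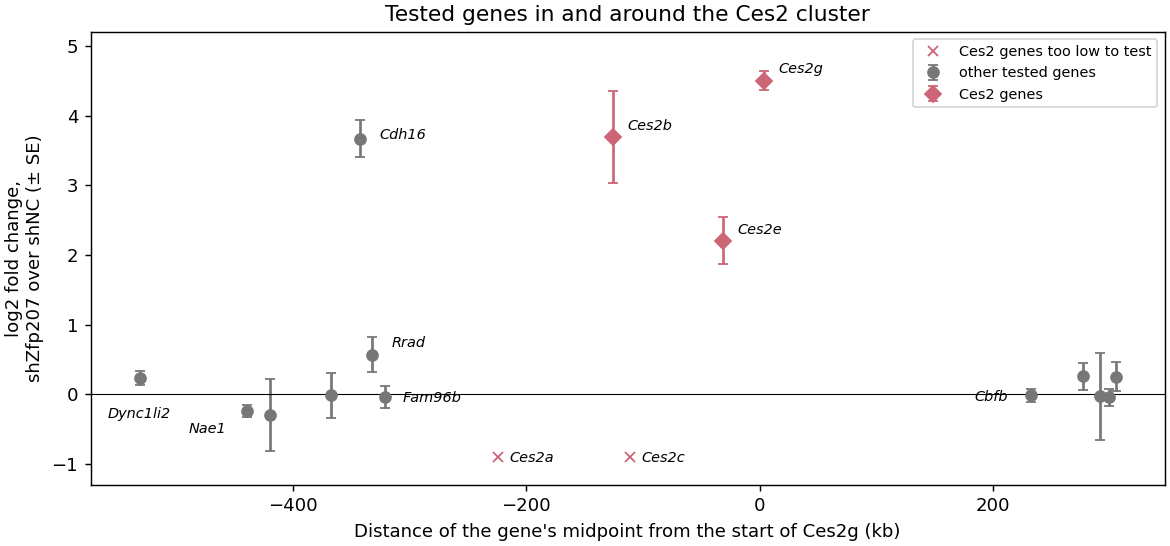
Fitted log2 fold change (± SE) of the 12 tested neighbours (grey) and the 3 tested Ces2 genes (red diamonds) against the distance in kb from the start of Ces2g. Crosses mark the position of Ces2a and Ces2c, which were too low to be tested and have no value. Cdh16 at 3.67 stands with the Ces2 genes, and the other 11 neighbours lie between -0.31 and 0.57.

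Nuclear receptors and other transcription factors active in liver, with the NRF2 inhibitor Keap1, were listed as regulators. Enough counts were present for 22 of 25 such genes, of which 2 passed as higher and 1 as lower in knockdown cells (median log2 fold change 0.06 against -0.03 over all genes, of which 20.6% passed). Nr5a2, the gene of the liver receptor homolog LRH-1, rose from 6.72 ± 2.24 to 15.4 ± 2.59 CPM (a log2 change of 1.18 ± 0.274 SE, adjusted p = 0.0276 by edgeR). Rxra, the common partner of many nuclear receptors, rose by 0.50 in log2 units (adjusted p = 0.0391 by edgeR), and Nr1h4, the gene of the bile acid receptor FXR, fell from 14.5 ± 1.13 to 6.36 ± 0.791 CPM (a log2 change of -1.19 ± 0.150 SE, adjusted p = 0.00523 by edgeR; SD, n = 3 for all means). Of these Nr1h4 passed in all 6 fits that left out 1 library, Nr5a2 in 2 and Rxra in 1. The xenobiotic sensors were low or did not pass. Nr1i2 (PXR) had 1 count in all, Nr1i3 (CAR) had 0.995 ± 0.218 and 0.694 ± 0.106 CPM, and Nfe2l2 (NRF2) had a log2 fold change of 0.27 (adjusted p = 0.225 by edgeR). Hnf4a, a hepatocyte factor, had 362.9 ± 23.9 and 366.8 ± 11.4 CPM. Nr1i2, Nr1i3, Nfe2l2 and Hnf4a were named after their values were seen. The list had 8 genes past the threshold without control replicate 1, and 1 without control replicate 2 or any 1 knockdown replicate.

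Other lipases, their cofactors and genes of lipoprotein assembly act on the same lipids as several carboxylesterases. Enough counts were present for 19 of 23 such genes, of which 3 passed as higher and 3 as lower (9.92% and 10.7% over all genes tested), with a median log2 fold change of -0.12 against -0.03 over all genes. Mttp, which loads lipid onto apolipoprotein B, rose from 31.0 ± 1.27 to 71.8 ± 1.49 CPM (a log2 change of 1.21 ± 0.0873 SE, adjusted p = 0.00153 by edgeR) and passed in all 6 fits that left out 1 library. Lipc, the hepatic lipase gene, rose from 0.400 ± 0.0878 to 1.45 ± 0.101 CPM (a log2 change of 1.85 ± 0.320 SE, adjusted p = 0.0115 by edgeR), and Abhd12, a lysophospholipid and monoacylglycerol hydrolase gene, rose by 0.43 in log2 units (adjusted p = 0.0220 by edgeR). Lpl, the lipoprotein lipase gene, fell from 100.9 ± 3.46 to 74.5 ± 3.82 CPM (a log2 change of -0.44 ± 0.0859 SE, adjusted p = 0.0166 by edgeR; SD, n = 3 for all means). Pnpla2, the gene of adipose triglyceride lipase, was named after its values were seen and had a log2 fold change of -0.35 (adjusted p = 0.173 by edgeR). Lipc passed in 3 and Abhd12 and Lpl in 2 of the 6 such fits, and the list had 2 genes past the threshold without control replicate 3 and 1 without any 1 knockdown replicate.

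Among other esterases and related hydrolases, 21 of 24 had enough counts, of which 2 passed as higher and 4 as lower (9.92% and 10.7% over all genes tested), with a median log2 fold change of 0.04 against -0.03 over all genes. Bche, the butyrylcholinesterase gene, rose from 87.8 ± 29.4 to 243.8 ± 13.5 CPM (a log2 change of 1.47 ± 0.253 SE, adjusted p = 0.0112 by edgeR), and Bphl, a valacyclovir hydrolase gene, rose from 12.2 ± 1.87 to 23.9 ± 0.707 CPM (a log2 change of 0.98 ± 0.143 SE, adjusted p = 0.00727 by edgeR). Pafah1b3, a subunit gene of a platelet-activating factor acetylhydrolase, fell from 36.1 ± 0.793 to 20.2 ± 1.04 CPM (a log2 change of -0.83 ± 0.0985 SE, adjusted p = 0.00441 by edgeR), and Lypla2, an acyl-protein thioesterase gene, fell by 0.51 in log2 units (adjusted p = 0.0138 by edgeR; SD, n = 3 for all means). Bphl and Pafah1b3 passed in all 6 fits that left out 1 library, while Bche passed in 4 and Lypla2 in 2. The list had 12 genes past the threshold without control replicate 1, and 3, 2 and 2 without knockdown replicates 1, 2 and 3.

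**Figure D4:**
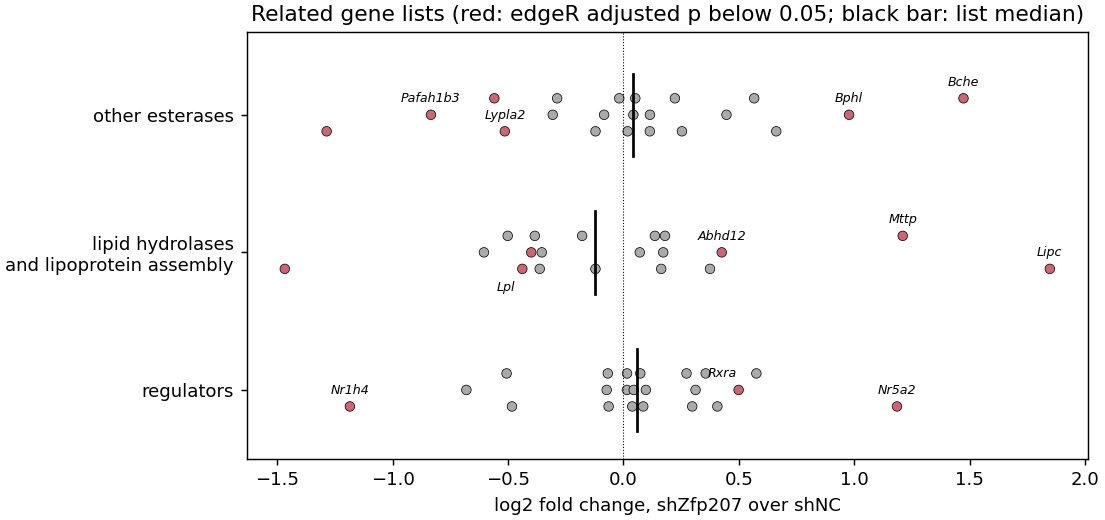
Fitted log2 fold changes of the tested genes in 3 related lists, the 22 regulators, 19 lipid hydrolase and lipoprotein assembly genes and 21 other esterases, with genes past an edgeR adjusted p of 0.05 in red and the list median as a black bar. The medians of 0.06, -0.12 and 0.04 lie near 0, and calls occur on both sides in each list.

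Genes whose levels across the 6 libraries most resembled those of each tested Ces2 gene were sought by Pearson correlation of log2 CPM over 10206 genes. For Ces2g these were B4galt5, a galactosyltransferase gene, Vapb and Szrd1 (r = 0.999 each), for Ces2e Cyr61, Lrp4 and Tef (r = 0.997 to 0.998), and for Ces2b Igfbp6, Mto1 and Optn (r = 0.996 to 0.998). With 2 groups of 3 libraries such values mainly follow the difference between the groups. They also follow any control that stood apart, such as replicate 1 for Ces2e and replicate 3 for Ces2b. The sizes differed, since B4galt5 had a log2 fold change of 1.53 and Vapb one of 0.34, against 4.51 for Ces2g.

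Some cell type markers also differed between the groups, and those given singly here were named after their values were seen. Of the 11 hepatocyte and hepatoma markers 7 were tested, of which 3 passed as higher and 2 as lower (9.92% and 10.7% over all genes tested). Alb had a log2 fold change of 1.29 (adjusted p = 0.0316 by edgeR), Afp one of 1.12 (adjusted p = 0.00480 by edgeR) and Apoa1 one of 0.85 (adjusted p = 0.0492 by edgeR), while the keratin genes Krt8 and Krt18 had -0.67 and -0.64 (adjusted p = 0.00670 and 0.0147 by edgeR). With 1 library left out, Afp passed in 6 of 6 fits, Krt8 in 4, Alb and Krt18 in 2 and Apoa1 in 1. The list summed to 5544 to 6917 CPM in the controls and 7394 to 7560 CPM in the knockdown libraries.

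Of the 4 cholangiocyte markers, all tested, 0 passed as higher and 2 as lower (9.92% and 10.7% over all genes tested). Krt7 fell from 26.3 ± 1.64 to 9.79 ± 0.509 CPM (a log2 change of -1.43, adjusted p = 0.00191 by edgeR) and Epcam fell by 1.54 in log2 units (adjusted p = 0.00643 by edgeR; SD, n = 3 for both means), both in all 6 fits that left out 1 library. Krt19 and Sox9 had log2 fold changes of 1.24 and -0.63 (adjusted p = 0.122 and 0.164 by edgeR), and the list summed to 114.8 to 209.0 CPM in the controls and 98.4 to 103.2 CPM in the knockdown libraries.

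The 4 intestinal epithelial markers, examined because Ces2 enzymes are also intestinal, summed to 248.0 to 435.7 CPM and 396.2 to 408.3 CPM. Lgr5 rose from 28.9 ± 6.79 to 54.6 ± 2.58 CPM (SD, n = 3 each; a log2 change of 0.92, adjusted p = 0.0171 by edgeR) and passed in 3 of the 6 fits that left out 1 library. Vil1, which made up most of the sum, had a log2 fold change of 0.03 (adjusted p = 0.938 by edgeR), and the intestinal factor Cdx2 was at 0 in all libraries.

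None of the tested leukocyte, endothelial and stromal markers (2, 1 and 1) passed in the fit of all 6 libraries. The 6 leukocyte markers summed to 14.1 to 19.1 CPM in the controls and 11.6 to 13.7 CPM in the knockdown libraries. Most of this came from Cd68, at 12.8 to 17.0 and 10.2 to 12.5 CPM. Ptprc, too low to be tested, had 1, 1 and 0 counts in the controls and 8, 5 and 5 in the knockdown libraries. The T cell gene Cd3e was at 0 throughout. The 3 endothelial markers summed to 0.617 to 1.68 and 1.46 to 2.05 CPM, and the 4 stromal markers to 2020 to 2281 and 2683 to 2765 CPM, nearly all from decorin (Dcn). Without control replicate 1, in the fit that called 6313 genes, Apob, Krt19, Sox9, Vil1 and Dcn passed as well. The part of these marker differences in the Ces2 levels was not tested.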

How the data were processed

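Gene counts and FPKM values as deposited by the authors were used for 6 libraries, 3 shNC and 3 shZfp207. The deposited counts are whole-number read counts per gene without normalization, and the FPKM values deposited by the authors scale the same counts by gene length and library total. The build mm10, featureCounts 1.5.0-p3 and HISAT2 2.0.5 appear, with no role stated, in the submitters' processing notes. The sources used here do not give the annotation, the strand setting or the handling of reads with several matches. Total counts per library were 11933736 to 16248346.

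The groups were compared by edgeR 4.0.16 (R 4.3.3): filterByExpr on the 2 groups, TMM scaling, a quasi-likelihood fit with group as the only term, and Benjamini-Hochberg adjustment over the 11975 genes tested, with a threshold of 0.05. Two-sided p-values are used throughout. Each SE was obtained as the log2 fold change over the square root of its F statistic. Alternatives were RLE and upper-quartile scaling, 2 other filters, DESeq2 1.42.0, a replicate block and leaving out each library.

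The members, the lists and the rules were chosen with earlier results of these data known. Named were all Ces genes, up to 4 genes past the threshold with the smallest p per list, the nearest tested neighbours of each array, and the 3 genes most correlated with each tested member among genes of at least 2 CPM. Coordinates are those of the deposited tables. Strand, exons and transcript sequences came from GENCODE M21 (GRCm38, the assembly of mm10) and promoters from RefSeq.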

Additional observations from a re-analysis of the deposited data

How the results depend on the processing

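The log2 fold changes of Ces2b, Ces2e and Ces2g kept their direction under every alternative run. Under the other scalings, filters, DESeq2 and the replicate block they were 3.65 to 3.82, 2.13 to 2.30 and 4.45 to 4.52, with no test read from them. With each library left out they were 3.22 to 5.36, 1.97 to 2.71 and 4.47 to 4.54 (2 to 3 of them below an adjusted p of 0.05, which is no support, since they were chosen from this comparison). Counts over all genes were 534 to 6313 with a library left out against 2466, the highest without control replicate 1, and those of the lists were 1 to 9 (lipid hydrolases), 2 to 12 (other esterases), 1 to 8 (regulators) and 1 to 4 (genes near the arrays). The squared difference in counts, over that of counting error and averaged over genes, was 139 and 148 between control replicate 1 and the other controls. It was 8.01 between control replicates 2 and 3 and 7.06 to 8.92 among the knockdown libraries. The part of this spread, and of fewer libraries in each fit, in the counts of called genes was not tested. The labels do not say whether same-numbered libraries were paired. Deviations of same-numbered libraries from their group means correlated across genes at -0.01, 0.01 and 0.05, and those of the other pairs at -0.05 to 0.02. With 3 libraries per group these values cannot settle whether the libraries were paired. With the replicate block 987 genes passed, 534 as higher and 453 as lower, with 1 lipid hydrolase gene (higher), 1 regulator gene (lower) and 4 other esterases, of which 2 were lower against 4 without it. DESeq2 called 4 other esterases higher against 2, and the fit without a filter 1 regulator higher against 2. Both of these started from 18294 genes in place of 11975 and included 7 of the 10 carboxylesterases in place of 3. No other count of called genes moved by over 1.5 times under these scalings, filters or DESeq2. Depth limits what can be said of the 6 genes with at most 2 counts in any library.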

Other observations

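The few carboxylesterase counts of the control cells outside Ces2e and Ces2g fell mostly in 1 library. Control replicate 3 held 5 of the 6 control counts of Ces2b, 4 of the 5 of Ces2c and both counts of Ces1c and Ces2a. It was also the deepest library, with 16248346 counts against 11933736 and 14591630 in control replicates 1 and 2. The fitted difference of Ces2b is largest without it.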
